A study of Mus musculus with 12 samples.

Results

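Low folate (LF) was compared with mid folate (MF) in the total mRNA of mouse neural stem cells (NSCs), with 2 RNA BS-seq libraries of each, 4 of the 12 libraries of the series. A cytosine was compared where all 4 libraries listed it with a coverage of at least 20 reads, 339674 of the 4524248 listed in any of them. A library lists a cytosine only with at least 1 unconverted read, and 340485 were listed in all 4. The number compared is thus set almost wholly by that listing, and by the coverage minimum very little. A gene was compared by the median coverage of its listed cytosines with a level under 5%, with at least 10 such cytosines in each library, which held for 10198 of up to 14444 gene names per library. The libraries were chosen by their labels, and no measured value entered that choice. The cells were adult NSCs from the subventricular zone of wild-type male C57BL/6 mice aged 6 to 8 weeks, grown as a monolayer with EGF and bFGF. The LF groups had 1.5 μM folic acid and the MF groups 10 μM, for 4 days with a change of medium on day 2. The LF medium was mixed from folate-free DMEM and F12, so some folate was left, and LF is a low supply rather than none. The methods call the replicates biological without saying whether they came from different mice, so the spread between replicates may be technical. P-values of limma and of the exact permutation test rest on that spread, while those of Fisher's exact test on summed reads rest on counting error alone.

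Folate carries the carbon units that make thymidylate and purines and that turn homocysteine into methionine, the precursor of S-adenosylmethionine. S-adenosylmethionine is the methyl donor of the NSUN enzymes and of DNMT2, which place 5-methylcytosine (m5C) on RNA. In RNA BS-seq, bisulfite turns an unmethylated cytosine into uracil, so the share of reads that still show C at a position, its level, is the readout of m5C together with cytosines that escaped conversion.

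Few cytosines passed the test, and more methylated cytosines lay higher than lower in LF in mitochondrial mRNAs and more lay lower than higher where they were clustered in nuclear mRNAs. Of the 339674 cytosines compared, 30 passed Fisher's exact test with levels that did not overlap between LF and MF, a share of 0.00883%, with 9 higher (0.00265%) and 21 lower (0.00618%) in LF. That split was 18 and 11 without LF replicate 1 and 37 and 16 without LF replicate 2. Of these, 12 lay in exon 1 of Igfbp3, which encodes a protein that binds insulin-like growth factors, in 2 runs, of which 9 cytosines at low level passed whichever library was left out and 3 at higher level did not pass without LF replicate 1. A cytosine was called methylated where it reached a level of 10% with 6 unconverted reads in both replicates of a group, as 1842 did. The study's filters on reads and on predicted structure were not applied, so the name also covers cytosines that escaped conversion. Since a methylated cytosine that qualified in a single group is high there by choice, the directions in this paragraph were counted over those that qualified in LF and in MF. That count was added after the data were seen. Of 488 such cytosines in mitochondrial genes 283 were higher in both LF libraries than in both MF libraries and 1 lower, where 20% of all compared cytosines were higher in this way and 14% lower. They form 11 stretches of neighbouring cytosines that share reads, of which 6 were higher and 5 overlapped. Of 262 clustered cytosines of nuclear genes 11 were higher and 79 lower, or 1 and 13 of 35 stretches. No gene passed limma for coverage by the rule used here.

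The sequences of the cytosines on which these results turn are given 5′ to 3′ in the strand of the mRNA, from GRCm38 (mm10), with the measured cytosine in capitals and 10 bases on each side. The first 5 passed the test, and the next 8 are methylated cytosines that stand alone, shown because they had the lowest p, are in genes the study names or carry the same bases.
Igfbp3, chromosome 11, position 7213701, minus strand, CDS in exon 1: ctggcgcgggCgcggtgggcg
Igfbp3, chromosome 11, position 7213692, minus strand, CDS in exon 1: gcgcggtgggCgcgggccccg
Igfbp3, chromosome 11, position 7213619, minus strand, CDS in exon 1: gcccaccgcgCccgcgtgcac
Rpl23, chromosome 11, position 97781822, minus strand, CDS in exon 2: ctgtgatcaaCtgtgcagaca
Col1a2, chromosome 6, position 4535412, plus strand, CDS in exon 42: atctcaggccCtcctggtgcc
Col4a6, chromosome X, position 141200186, minus strand, CDS in exon 22: tcaaaaatgtCaggggacaaa
Wdr48, chromosome 9, position 119925427, plus strand, 3′UTR in exon 19: cgtggacctgCaggctgccac
Rnf157, chromosome 11, position 116358680, minus strand, CDS in exon 8: gcccctcaagCagaagcaagt
Cotl1, chromosome 8, position 119809704, minus strand, 3′UTR in exon 4: ctctggtagaCactgcttggc
Klhl26, chromosome 8, position 70455581, minus strand, CDS in exon 2: tggcctcctgCagggcctggc
Fbln2, chromosome 6, position 91268545, plus strand, CDS in exon 15: cagatgtgaaCgagtgcgaga
Fam131a, chromosome 16, position 20701948, plus strand, 3′UTR in exon 6: cctctgtggcCaaatgtgggc
Csf1, chromosome 3, position 107756658, minus strand, CDS in exon 2: acactgtagcCacatgattgg

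The libraries were of like depth, with a median of 2737 reads per compared cytosine, and the factors that put gene coverage on 1 scale lay between 0.940 and 1.10. Over all cytosines that a library lists, compared or not, the median coverage was 521 to 605 reads. Of the NSC markers, 13 of 15 were measured, with a summed coverage of 67385 and 64649 in LF and 58719 and 62435 in MF. Their median LF minus MF difference was 0.02 on the log2 scale. It was -0.02 for the 9 measured over cytosines listed in all 4 libraries, of which 2 lay higher and 4 lower in both LF libraries. Vim, Fabp7, Nes and Hes1 were the highest, while Gfap and Sox2 had no value by the rule. None of the 7 endothelial or 5 ependymal markers had a value, and of the neuronal markers 2 of 10 and of the microglial markers 1 of 9, Cx3cr1, had one. Of the astrocyte markers 4 of 7 had a value, with a summed coverage of 5585 and 4359 in LF and 5639 and 4570 in MF. Of the oligodendrocyte markers 2 of 9 had one. Of the mesenchymal markers 6 of 12 were measured, led by Col1a2, and their summed coverage was 7698 and 8140 in LF and 6661 and 7658 in MF. The share of unconverted reads over listed cytosines with a level under 5% was 0.148% and 0.145% in LF and 0.144% and 0.139% in MF, a difference of 0.0051 percentage points (exact permutation test, p = 0.33, the smallest that 2 libraries against 2 can give). Cytosines without an unconverted read are not listed, which raises this share. Over cytosines listed in all 4 libraries it was 0.0954% and 0.0947% in LF and 0.0934% and 0.0914% in MF. Since reads of PCR-amplified libraries are not independent molecules, Fisher's test and each level below carry counting error only.

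Igfbp3 held the cytosines with the largest differences among those that passed. At position 7213701 the level was 9.98% and 15.0% in LF and 19.7% and 16.6% in MF, from 2679 to 4034 reads per library. Both LF libraries were below both MF libraries, and the pooled level was lower by 5.41 percentage points (adjusted p = 2.45e-14, Fisher's exact test with Benjamini-Hochberg adjustment). The replicates differed by much more than counting error, with an SD of 3.53 percentage points in LF and 2.18 in MF (n = 2 each), which Fisher's test leaves out. Without LF replicate 1 the difference was -2.84 percentage points and the adjusted p 0.273 (Fisher's exact test), so the call at this position rested on that library. With limma on the log odds, which does include that spread, 0 of the 339674 cytosines passed (17647 had an unadjusted p under 0.05, lowest adjusted p = 0.93, while Fisher's test gave 30 calls).

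The 12 Igfbp3 cytosines fell in 2 runs within 85 bases, between positions 7213617 and 7213701. The 5′ run held 3 methylated cytosines over 10 bases, whose levels moved together from library to library. All were under 10% in LF replicate 1, so they qualified as methylated through MF alone, where they are high. None of the 3 passed without LF replicate 1. The level at position 7213692 was 7.003% and 9.94% in LF and 12.7% and 11.0% in MF, and its call was also lost without MF replicate 1 (adjusted p = 0.0529, Fisher's exact test). The 3′ run held 9 cytosines over 12 bases at levels from 1.42% to 3.97%, lower in LF by 0.979 to 1.29 percentage points. Its position 7213619 had 2.04% and 2.79% in LF and 3.97% and 3.56% in MF, and LF replicate 1 was the lowest library in both runs. All 9 passed when each library was left out in turn, and without LF replicate 1 they were lower by 0.723 to 0.936 percentage points (highest adjusted p = 0.000517, Fisher's exact test). Cytosines of a run are covered by the same reads, so these 12 are at most 2 separate measurements. The bases of the 5′ run are the reverse complement of those of the 3′ run. The study removed cytosines in regions whose predicted structure resists conversion, a filter not applied here. The part of such structure in these levels was not tested.

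**Figure D1:**
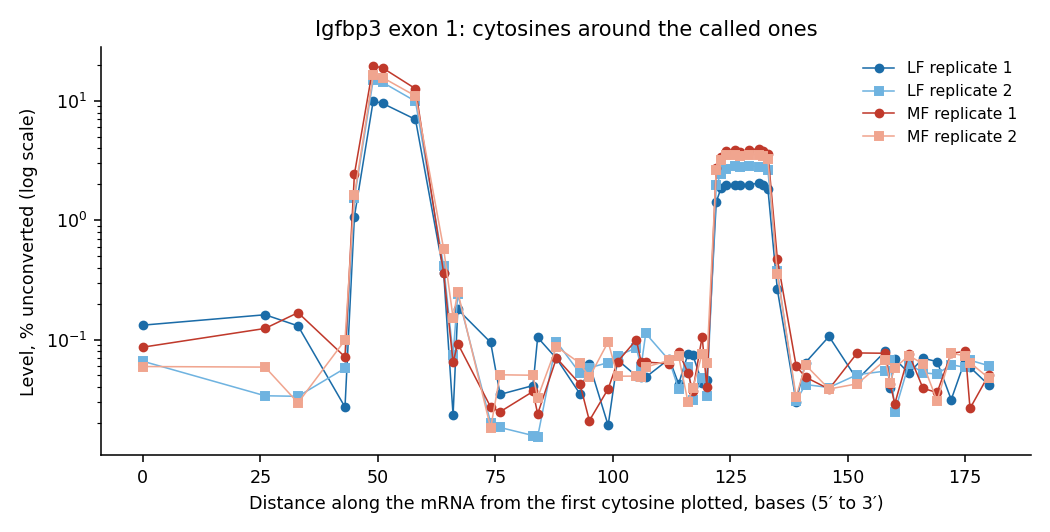
Level of each compared Igfbp3 cytosine within 50 bases of the ones that passed (y axis, percent of reads unconverted, log scale) against its distance along the mRNA in bases, with 1 line per library. The 2 runs stand out from the cytosines around and between them, and in both runs LF replicate 1 is lowest and MF replicate 1 highest.

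Within 50 bases of the runs were 41 other compared cytosines, of which 8 lay below MF in both LF libraries, 5 above and 28 overlapped. Their unconverted share was 0.0717% and 0.0734% in LF and 0.0831% and 0.0788% in MF. Over the other 507 compared cytosines of Igfbp3 the share was 0.0793% and 0.0831% in LF and 0.0803% and 0.0772% in MF, with LF neither above nor below. In polysome mRNA, from libraries of their own, position 7213701 had 16.8% and 17.6% at low folate and 13.3% and 14.7% at mid folate, so the order of the groups was the opposite of that in total mRNA, a difference between the fractions that was not tested.

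Rpl23 and Col1a2 were among the 18 other cytosines that passed, each in a gene of its own and each in coding sequence. At the Rpl23 cytosine, in the mRNA of a protein of the large ribosomal subunit, the level was 7.85% and 8.83% in LF and 7.37% and 7.29% in MF, higher in LF by 1.04 percentage points (adjusted p = 0.00102, Fisher's exact test) from 16577 to 22106 reads. It did not pass without LF replicate 2 (adjusted p = 0.972, Fisher's exact test) or without MF replicate 2 (0.173). Of the 18 cytosines that passed outside Igfbp3, 2 to 5 passed when a library was left out. The polysome levels of the Rpl23 cytosine were 9.72% and 12.1% at low and 10.8% and 13.0% at mid folate, where the groups overlapped. The Col1a2 cytosine, in the mRNA of a type I collagen chain, had 0.175% and 0.149% in LF and 0.0148% and 0.0114% in MF (adjusted p = 0.0389, Fisher's exact test). Both LF libraries were above both MF libraries, all at levels near or below the unconverted share over all listed cytosines given above. Against the share over cytosines listed in all 4 libraries, the LF levels were above and the MF levels below. The call was lost when any 1 of the 4 libraries was left out (adjusted p from 0.0847 to 0.578, Fisher's exact test).

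The levels of the other 17 cytosines apart from Igfbp3 and Rpl23 were all between 0.0088% and 0.588%, and their differences between 0.0663 and 0.289 percentage points. They are named here after their values were seen. Besides Col1a2, those higher in LF were in Cct3, a subunit of the chaperonin that folds actin and tubulin, Nes, the intermediate filament nestin of NSCs, Cpe, Crip2, Cd151, Fndc3c1 and mt-Co1. Those lower in LF were in Naca, Rps14, Atp5g3, Anxa2, Serbp1, Cwc15, Lrig1, Maged1 and Ap2s1. The Nes cytosine had 0.0946% and 0.143% in LF and 0.0389% and 0.0197% in MF, from 18194 to 20586 reads. When the overdispersion of methylated cytosines was put into the beta-binomial test, a setting chosen after seeing the data, the 12 Igfbp3 cytosines passed and these 18 did not. That overdispersion was 1 value, 9.999e-05, for all 1842 methylated cytosines. It does not measure the spread between replicates at Igfbp3, so passing is no check against that spread.

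Methylated cytosines numbered 1842, and their median level was 33.3% and 40% in LF and 32.2% and 31.8% in MF. Both LF libraries were above both MF libraries, by 4.63 percentage points (exact permutation test, p = 0.33). The difference was 1.30 without LF replicate 2, 7.97 without LF replicate 1 and 0.15 without clustered cytosines. This median joined groups of cytosines that differed in place and in direction: 644 in mitochondrial genes, 333 clustered and 86 isolated ones in nuclear genes, and 779 outside annotated genes. The 779 had a median level of 100% in every library. A cytosine was clustered where another methylated one lay within 25 bases on the same strand. The sign turned without chromosome MT, where LF minus MF was -1.62 percentage points, and in nuclear genes alone, where it was -2.61. Of all compared cytosines 34% had levels that did not overlap between the groups, against which the counts below may be read.

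Mitochondrial mRNAs held the widest difference in methylated cytosines, although none of these cytosines was among those that passed Fisher's exact test over all compared cytosines. The mitochondrial genome encodes subunits of respiratory complexes I, III, IV and V, and its transcripts are made inside the organelle and not exported. The median level of the 644 cytosines was 22.8% and 26.2% in LF and 16.02% and 17.6% in MF, 7.65 percentage points higher in LF (exact permutation test, p = 0.33). Of these, 142 qualified as methylated in LF alone and 14 in MF alone, and the 488 that qualified in both had 25.3% and 26.5% in LF and 17.5% and 21.7% in MF, 6.32 percentage points higher in LF. Their median coverage was 60 and 67 reads in LF and 77.5 and 69 in MF. At the lowest coverage compared, 20 reads, 1 read moves a level by 5 percentage points.

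Complex I subunits supplied most of these cytosines. In mt-Nd5, with 302 of them, the median level was 23.2% and 33.0% in LF and 17.0% and 18.6% in MF, and of the 212 that qualified in both groups 135 were higher in both LF libraries and 1 lower. In mt-Nd4, with 138, it was 21.4% and 20.9% in LF and 16.1% and 13.6% in MF, with 89 higher and 0 lower of the 117 that qualified in both. In both genes every LF median lay above every MF median.
The 40 cytosines of mt-Nd2 had the widest gap, 47.5% and 34.8% in LF against 16.8% and 25.8% in MF, on a median coverage of 35.5 and 39 reads in LF, and 31 of them qualified in both groups, with 58.6% and 35.3% in LF and 18.8% and 26.8% in MF. The 78 cytosines of mt-Nd1 had 20.5% and 27.8% in LF and 15.0% and 24.6% in MF, so that here the groups overlapped.
mt-Cytb, the complex III subunit, had 19.7% and 14.8% in LF and 10.3% and 12.3% in MF over 50 cytosines at a median coverage of 155 to 211 reads, and 29.6% and 24.2% in LF and 17.9% and 16.3% in MF over the 26 that qualified in both groups. mt-Co1, the complex IV subunit, differed in its order, with 19.5% and 13.0% in LF and 14.1% and 18.6% in MF over 35 cytosines. The 1 cytosine of mt-Rnr1, the small ribosomal RNA, had 63.9% and 67.1% in LF and 67.0% and 69.3% in MF.

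**Figure D2:**
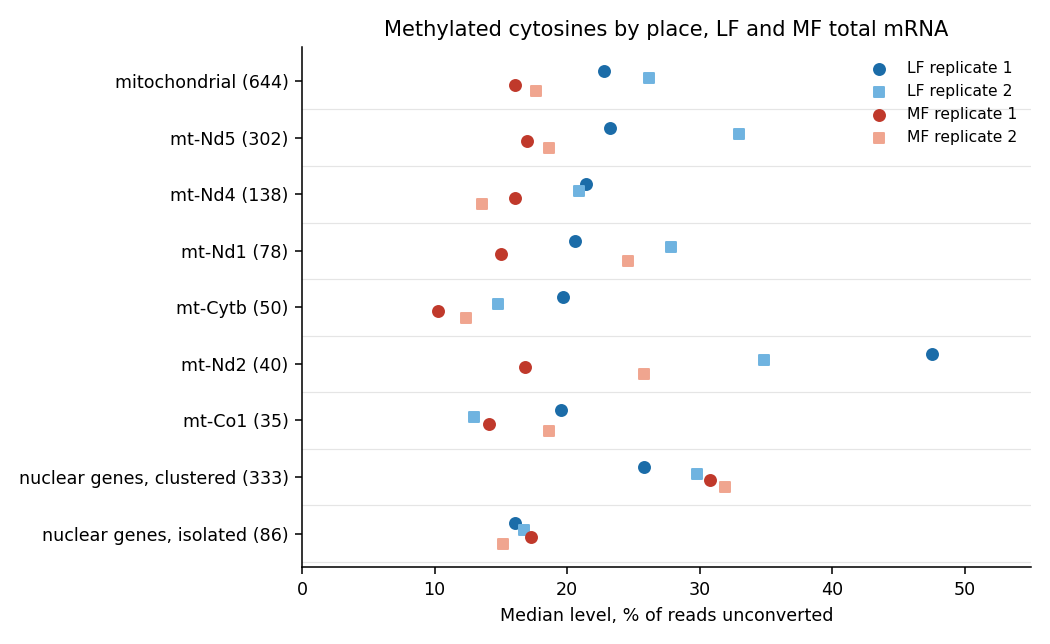
Median level of the methylated cytosines (x axis, percent of reads unconverted) in each place, with the number of cytosines in brackets and 1 point per library. Both LF libraries lie to the right of both MF libraries in mt-Nd5, mt-Nd4, mt-Nd2 and mt-Cytb and to the left in clustered cytosines of nuclear genes, where the 262 that qualified in both groups overlapped.

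Mitochondrial cytosines lay in long runs. Where methylated cytosines no more than 25 bases apart were joined, the 644 fell into 15 stretches of up to 506 bases, and by the median level of a stretch 7 were higher in both LF libraries, 0 lower and 8 overlapped. Over cytosines that qualified in both groups 6 of 11 were higher, 0 lower and 5 overlapped. A count of stretches is the closer guide to the number of separate measurements, because cytosines of a stretch share reads. In polysome mRNA, chromosome MT took 0.0433% to 0.057% of the coverage, against 0.278% to 0.343% in total mRNA, and 4 of the 644 cytosines, all in mt-Co1, had 20 reads in every polysome library, too few to compare. The coverage of the same mRNAs over cytosines listed in all 4 libraries, which is taken up below, was in mt-Cytb 1893 and 2462 reads in LF and 3207 and 2663 in MF.

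Clustered cytosines of nuclear genes had more lower than higher in LF. These 333 cytosines of 41 genes had a median level of 25.8% and 29.8% in LF and 30.8% and 31.9% in MF, a difference of -3.54 percentage points (exact permutation test, p = 0.33). They formed 50 stretches, of which 2 were higher in both LF libraries, 21 lower and 27 overlapped. Since 60 of the cytosines qualified as methylated in MF alone and 11 in LF alone, that count is set in part by the choice of cytosines. The 262 that qualified in both groups had a median of 33.1% and 39.9% in LF and 38.3% and 39.8% in MF, where the groups overlapped, and of their 35 stretches 1 was higher, 13 lower and 21 overlapped. The lowest library was LF replicate 1 by the median over cytosines and LF replicate 2 by the median over stretches, 21.2% and 19.8% in LF against 24.9% and 22.8% in MF. In polysome mRNA, where 192 of the 333 had 20 reads in every library, the medians were 24.02% and 24.7% at low folate and 24.8% and 24.9% at mid folate, while the same 192 had 18.4% and 19.4% in LF and 23.6% and 22.7% in MF.

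Counts and medians per gene are given over all 333 clustered cytosines, also the 60 that qualified in MF alone and the 11 in LF alone. They may thus be set in part by the choice of cytosines. Rgp1, a partner of the exchange factor for the Golgi GTPase Rab6, had 8 clustered cytosines, all lower in both LF libraries, with a median of 35.7% and 46.7% in LF and 54.8% and 58.4% in MF. Zc3h4, a zinc finger protein of nuclear RNA surveillance, had 9 of 9 lower, at 13.0% and 17.2% in LF and 20.5% and 24.1% in MF. Mgat4b, an enzyme that branches N-glycans, had 8 of 8 lower, at 16.1% and 18.6% in LF and 19.7% and 20.8% in MF on a median coverage of 1105 to 1422 reads.
In these 3 genes each LF median was below each MF median, and the gap was largest in Rgp1, where coverage was lowest. Skida1 had 8 of 8 lower, at 11.4% and 13.8% in LF and 18.6% and 14.9% in MF. Eif4ebp2, which binds the cap-binding factor eIF4E and holds back translation, had 8 of 12 lower, at 22.4% and 24.3% in LF and 25.8% and 26.1% in MF. Usp7, a deubiquitinase, had 9 of 13 lower and Tle3, a corepressor, 7 of 8.
Of the stretches elsewhere, 3 without overlap were chosen after their values were seen. Cavin1, a caveolar coat protein, had 70.04% and 69.3% in LF and 71.2% and 70.1% in MF, Smurf2, a ubiquitin ligase, 8.62% and 8.41% in LF and 12.9% and 12.4% in MF, so that it reached the 10% through MF, and Fam8a1, higher in LF, 60.9% and 54.0% in LF and 46.1% and 51.9% in MF. Groups overlapped in 27 of the 50 stretches. Samd1 had a median of 34.8% and 39.4% in LF and 34.0% and 37.6% in MF, and Myo9b 53.04% and 63.4% in LF and 55.8% and 55.6% in MF. Reads with more than 3 unconverted cytosines, which the study removed before its own site calls, are still in these counts, and a cluster is where such reads collect. Their part in the difference was not tested.

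Isolated cytosines of nuclear genes showed no common direction. The 86 cytosines in 85 genes had a median of 16.1% and 16.7% in LF and 17.3% and 15.2% in MF, and 18 were higher in both LF libraries, 20 lower and 48 overlapped. Of the 54 that qualified in both groups 8 were higher, 11 lower and 35 overlapped. They lay in coding sequence in 37 cases, in the 3′UTR in 23, in the 5′UTR in 12, in introns in 9 and in exons of noncoding transcripts in 5. Most were of low level, with a mean under 20% in 53 and of at least 50% in 3. In 61 the pooled levels differed by under 5 percentage points and in 10 by at least 10. The SD of the difference of group means over the 86 cytosines was 6.33 percentage points, beside the 5.35 that the spread between replicates alone would give. Of the 86, 15 qualified as methylated through LF alone and 17 through MF alone. These counts and this SD are therefore set in part by the choice of cytosines. None of the 86 passed Fisher's exact test (20 had an unadjusted p under 0.05, lowest adjusted p = 0.104), and none passed limma. With p-values adjusted over the 1842 methylated cytosines alone, which were chosen by their levels, 3 of the 86 passed Fisher's exact test.

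**Figure D3:**
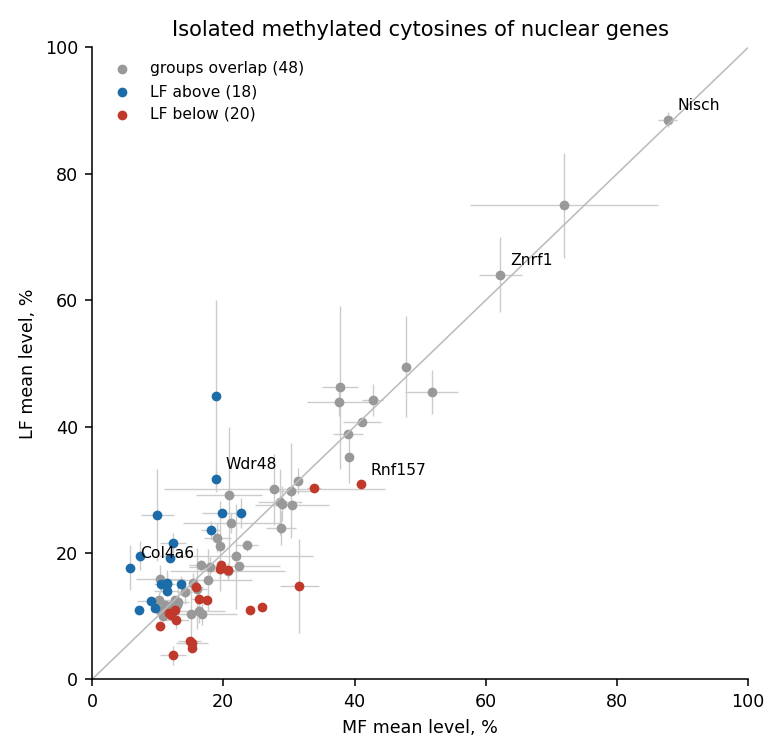
Mean level of each isolated methylated cytosine of a nuclear gene in LF (y axis, percent) against MF (x axis, percent), with bars from the lower to the higher replicate and the line of equality. Blue and red points are cytosines whose LF values lie all above or all below the MF values, and grey points are those whose groups overlap.

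Those 3, of Col4a6, Wdr48 and Rnf157, also had the lowest p among the isolated ones. Col4a6, a chain of type IV collagen of basement membranes, had 21.2% and 14.1% in LF and 5.65% and 5.96% in MF, from 124 to 151 reads (adjusted p = 0.104, Fisher's exact test). Its polysome levels were 27.3% and 20.8% at low and 37.8% and 24.4% at mid folate, where the groups overlapped. Wdr48, a cofactor of the deubiquitinase USP1, had 33.1% and 30.4% in LF and 18.4% and 19.4% in MF (adjusted p = 0.113, Fisher's exact test). Rnf157, a ubiquitin ligase, had 31.6% and 30.1% in LF and 41.6% and 40.3% in MF (adjusted p = 0.225, Fisher's exact test). In each of the 3 the replicates lay closer to each other than the groups did. Their p adjusted over methylated cytosines alone was 0.0056, 0.00659 and 0.0224 (Fisher's exact test), and Col4a6 qualified as methylated through LF alone, where it is high.

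The isolated cytosines of other genes the study names passed under neither adjustment. Fbln2, an extracellular matrix fibulin, was the most precise, with 12.5% and 12.7% in LF and 12.8% and 12.6% in MF from 5224 to 7084 reads. Cotl1, an actin-binding protein, had 11.3% and 11.2% in LF and 9.85% and 9.26% in MF from 2459 to 3857 reads, 1.73 percentage points apart (adjusted p = 0.493, Fisher's exact test). Klhl26 had 27.0% and 25.7% in LF and 16.7% and 22.8% in MF (adjusted p = 0.702, Fisher's exact test).
Cotl1 and Klhl26 lay higher in both LF libraries, and so did Samd14, at 13.6% and 16.7% in LF and 12.6% and 10.2% in MF, Rela, a subunit of NF-κB, at 28.6% and 23.9% in LF and 22.5% and 22.9% in MF, and Nelfb, a subunit of the pausing factor NELF, at 14.1% and 13.8% in LF and 9.43% and 13.3% in MF. Of these 5, Cotl1 and Nelfb reached the 10% in both replicates of LF alone. Rptor, the raptor subunit of mTORC1, lay lower, with 10.3% and 10.6% in LF and 11.5% and 11.8% in MF.
The mechanosensitive channel Piezo1 had 2 cytosines. In exon 34 the level was 9.19% and 7.63% in LF and 10.3% and 10.5% in MF. In exon 6 it was 10.2% and 10.4% in LF and 11.8% and 9.81% in MF, where the groups overlapped. Each of the pair reached the 10% in both replicates of a single group, the first through MF and the second through LF.
Overlap between the groups was also seen in Foxo3, a transcription factor, with 15.8% and 11.9% in LF and 12.9% and 15.3% in MF, and in Fbn1, fibrillin, with 11.8% and 10.1% in LF and 10.1% and 10.4% in MF. Glg1 had 22.1% and 20.3% in LF and 25.4% and 21.8% in MF, Cenpv 12.3% and 11.3% in LF and 12.1% and 13.7% in MF, and Ybx3 12.02% and 9.83% in LF and 10.1% and 11.5% in MF. Cdca4 had 13.8% and 16.8% in LF and 14.8% and 16.1% in MF, and Ptprn 18.4% and 15.8% in LF and 29.4% and 11.9% in MF from 34 to 42 reads.

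The bases around isolated cytosines were searched in the 21-base sequences, with motifs chosen after the sequences were seen, on the strand of the mRNA only. GCCANATG with the measured C at base 3 was held by 8 of the 86 (9.30%) and by 0.0736% of all compared cytosines. CNGGG with the measured C first was held by 20 (23.3%) and by 1.83% of all, and CTCCA by 5 (5.81%) and by 0.812%. Of the 8 with GCCANATG, 2 overlapped between the groups. The other 6 qualified as methylated only through the group where they are high, 3 through LF and 3 through MF, so their directions are set by that choice and are given as a description. Fam131a had 17.2% and 21.9% in LF and 7.55% and 7.04% in MF, while Csf1, the growth factor of macrophages, had 6.49% and 5.08% in LF and 17.7% and 12.8% in MF and Smad2, which is given without sequence and carries TGF-β signals, 4.76% and 5.17% in LF and 15.0% and 15.4% in MF. These 3 cytosines rest on 53 to 94 reads per library.

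Outside annotated genes, the 779 methylated cytosines had a median of 100% in each of the 4 libraries, and 660 of them overlapped between the groups. They formed 27 stretches, 1 higher in both LF libraries, 3 lower and 23 overlapping. Stretches of 110 cytosines over 218 bases and of 104 over 207 had a median of 100% in every library. The study's filters were not applied to these cytosines, and whether they carry m5C was not tested.

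The share of unconverted reads over all compared cytosines of a gene, a measure added after the data were seen, was compared for 3739 genes. Its median was 0.117%, and 36 genes were above 1%. No gene passed limma (244 had an unadjusted p under 0.05, lowest adjusted p = 0.212), while 35.1% of the genes had values that did not overlap between the groups. The lowest p belonged to cytosines annotated to both Ftl1, the ferritin light chain, and Gm22133, with 0.0964% and 0.102% in LF and 0.231% and 0.227% in MF. In mt-Nd5 the share was 17.2% and 20.1% in LF and 10.8% and 10.6% in MF (adjusted p = 0.757, limma).

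Gene coverage was compared next, as the median number of reads per listed cytosine of a gene divided by the factor of its library. It stands for the relative abundance of the mRNA, and fewer cells that express a gene and less of its RNA per cell cannot be told apart. None of the 10198 genes passed limma (0%; 592 had an unadjusted p under 0.05, 5.81% of the genes, lowest adjusted p = 0.165). With the edgeR quasi-likelihood test on the rounded medians 0 passed as well, and with DESeq2 132 did, 49 higher and 83 lower. The SD over genes of the LF minus MF difference was 0.50 on the log2 scale, where the spread between replicates alone would give 0.48. Differences beyond 1 on the log2 scale were found in 561 genes, and 37.9% of the genes had values that did not overlap.

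A cytosine is listed only where at least 1 read was unconverted, so different cytosines of a gene are listed in different libraries. Coverage over the cytosines that all 4 libraries list was therefore set beside the rule's value, a measure with 3718 genes. Its LF minus MF differences had an SD of 0.14, where the spread between replicates alone would give 0.09, with 25 genes beyond 0.5 and 1 beyond 1 on the log2 scale. Of these genes 26.4% lay higher and 26.4% lower in both LF libraries, 52.8% in all, so that groups that do not overlap are common and small in this measure.

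The 24 genes with the lowest p by the rule, 12 in each direction, did not pass. Paip2, which binds poly(A)-binding protein and holds back translation, had a coverage of 2672 and 3019 in LF and 339 and 305 in MF, 3.14 higher in LF on the log2 scale (SE 0.15, adjusted p = 0.165, limma). Over the 111 shared cytosines it had 7894 and 8421 in LF and 6562 and 7847 in MF, a difference of 0.18. The wide gap of the rule's median was thus not in the positions measured in every library, and the mean coverage of all its listed cytosines differed by 0.25. With the rule's median taken over cytosines in annotated exons alone, Paip2 differed by 0.07. By that same measure S100a16 and Matr3, given next, kept differences of 3.36 and 3.23.

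S100a16, a calcium-binding protein (chromosome 3, 90537254 to 90543151), had 8312 and 6345 in LF and 608 and 829 in MF, 3.35 higher (adjusted p = 0.263, limma). In this gene 117 and 144 cytosines were listed in LF and 212 and 180 in MF. Over 83 shared cytosines the coverage was 11071 and 11478 in LF and 10751 and 10716 in MF, a difference of 0.07. Pbdc1 had 342 and 335 in LF and 2070 and 2059 in MF, 2.61 lower in LF, and over 22 shared cytosines 2728 and 2613 in LF and 2524 and 2556 in MF, where the sign turned, to 0.07.
Matr3, an RNA-binding protein of the nuclear matrix, differed by 3.23 by the rule and by -0.11 over shared cytosines. The sign also turned in Chmp3, a subunit of ESCRT-III, from -1.73 to 0.04, and in Vps26a of the retromer, from -1.91 to 0.11.
Polr3k, a subunit of RNA polymerase III, differed by 2.28 and 0.02, Ube2d3, a ubiquitin-conjugating enzyme, by 1.53 and 0.01, and Rnf7, a subunit of cullin ubiquitin ligases, by 1.03 and 0.08. Oaz1, the antizyme of ornithine decarboxylase, differed by -1.38 and -0.04, and Fam98b by -1.84 and -0.28. For Fam98b both values pointed the same way, with 2190 and 2290 in LF and 2835 and 2615 in MF over shared cytosines (adjusted p = 0.149, limma). The pseudogene Rpl7a-ps11, whose reads may be those of the near-identical Rpl7a, differed by -2.30 and -0.42.

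**Figure D4:**
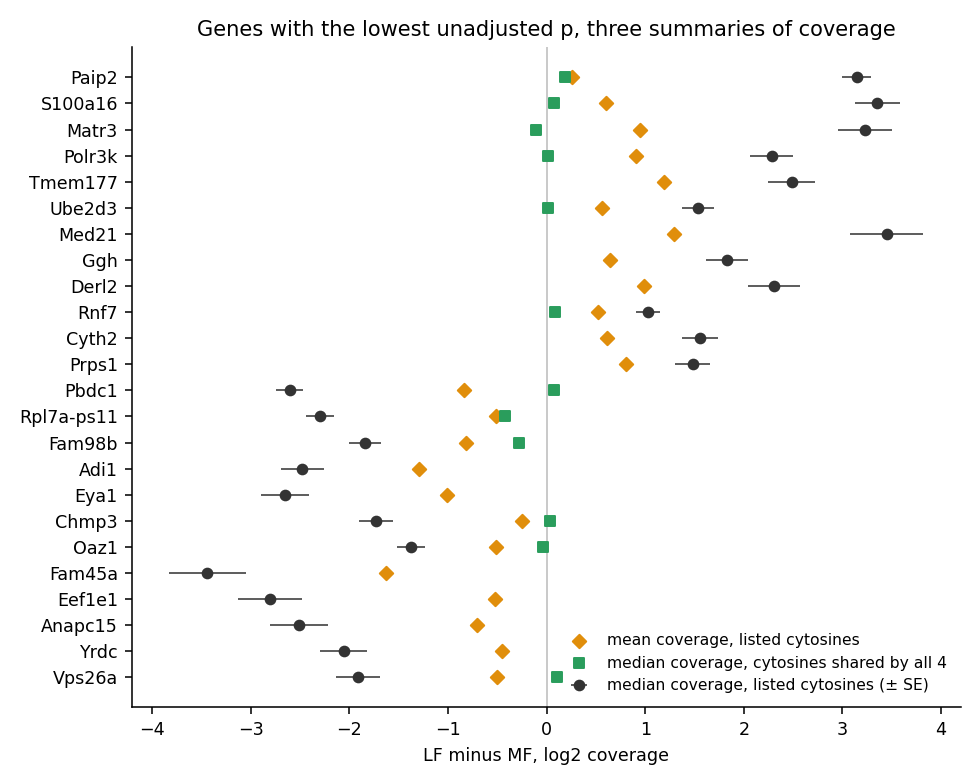
LF minus MF difference of log2 coverage (x axis) for the 24 genes with the lowest unadjusted p by the rule, as the median coverage of listed cytosines with its SE (black), the mean coverage of the same cytosines (orange) and the median over cytosines shared by all 4 libraries (green, where at least 10). The mean is closer to 0 than the median in each gene, and the green points lie within 0.5 of 0.

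The other genes of the 24 had under 10 shared cytosines. Higher in both LF libraries were Tmem177, Med21 of the Mediator complex, Derl2 of endoplasmic reticulum protein degradation, Cyth2, Prps1, which makes the ribose phosphate of nucleotides, and Ggh, with differences from 1.48 to 3.45. With levels under 2% in place of 5%, Tmem177 turned to -0.13 and Med21 to -0.48, and Derl2 came to 0.07. Lower were Adi1, Eya1, Fam45a, Eef1e1, Anapc15 of the anaphase-promoting complex and Yrdc, from -3.44 to -2.06. With levels under 2% Eef1e1 turned to 0.46 and Eya1 came to -0.13. Adi1, an enzyme that salvages methionine, had 119 and 109 in LF and 602 and 667 in MF. Its mean coverage differed by -1.29.

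Over shared cytosines, 1 of 3718 gene names passed limma, a share of 0.0269% (621 had an unadjusted p under 0.05). It was Ddx5,Gm25994, 10 cytosines that lie both in Ddx5, an RNA helicase, and in Gm25994, with 826 and 736 in LF and 1353 and 1312 in MF, 0.77 lower in LF (adjusted p = 0.0488, limma). The 539 shared cytosines of Ddx5 alone had 5300 and 4966 in LF and 6210 and 6184 in MF, a difference of -0.27 (adjusted p = 0.149, limma). DESeq2 on the same values gave 87 genes, 23 higher and 64 lower, and edgeR 1. The call was lost (0 genes) with quantile normalization, in limma without trend (lowest adjusted p = 0.053), with a replicate block (0.078) and without MF replicate 1 (0.0789).

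The genes next in order did not pass (adjusted p from 0.099 to 0.149, limma). Lower in both LF libraries were Psmd3, a subunit of the proteasome cap, with 1327 and 1596 in LF and 2245 and 2334 in MF, a difference of -0.65, and Slc30a5, a zinc transporter of the secretory pathway, with 428 and 441 in LF and 647 and 639 in MF, a difference of -0.57. Lypla2, which removes palmitate from proteins, had 1385 and 1358 in LF and 1840 and 1883 in MF, a difference of -0.44. In these 3 the rule's value had the same sign, at -0.46, -0.25 and -0.45.
Nr2f1, a transcription factor of the developing cortex, differed by -0.38, Ubqln1, a shuttle factor of the proteasome, by -0.41, Dpp8 by -0.43, Ndp, the Wnt receptor ligand norrin, by -0.57 and Esd by -0.54. AI506816, Fndc3c1, Pigq and the pseudogene Rps10-ps2 differed by -0.43 to -0.37.
Higher in both LF libraries were Apoe, the main lipid carrier made by astroglia, with 6209 and 6073 in LF and 4711 and 5166 in MF, a difference of 0.32, Crabp1, which binds retinoic acid, with 1900 and 2446 in LF and 1309 and 1578 in MF, a difference of 0.58, and Pfdn5, a subunit of prefoldin, with 9406 and 9892 in LF and 8096 and 7987 in MF, a difference of 0.26. Itpa, Tma7, Zfas1, Rpl41 and Rnf220 differed by 0.27 to 0.52, and the pseudogenes Gm12892, Rpl3-ps1 and Rpl14-ps1 by 0.31 to 0.66. Plagl1, an imprinted transcription factor, differed by 0.36 over 18 shared cytosines and by -1.13 by the rule. The rule's sign also turned in Pigq (0.09), Itpa (-0.05), Rpl3-ps1 (-0.12) and Rnf220 (-0.48).

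Folate cycle genes were present at levels that largely overlapped between LF and MF. Of 24 genes 20 were measured, with a median difference of 0.02 on the log2 scale beside 0.00 over all genes, and none passed limma. Folr1, Folr2, Ftcd and Mthfs had no value. Among the enzymes of the cytosol, Tyms, thymidylate synthase, had 1274 and 1376 in LF and 1180 and 1407 in MF, and Mthfd1, which interconverts 1-carbon forms of folate, 1232 and 1151 in LF and 1278 and 1086 in MF. Shmt1, serine hydroxymethyltransferase, had 606 and 561 in LF and 505 and 687 in MF, and Aldh1l1, 10-formyltetrahydrofolate dehydrogenase, 668 and 500 in LF and 650 and 689 in MF.
In these 4 genes no order of the groups was seen. Among the mitochondrial enzymes, Shmt2 had 678 and 731 in LF and 760 and 677 in MF, Mthfd2 861 and 525 in LF and 850 and 707 in MF, Mthfd1l 357 and 256 in LF and 400 and 210 in MF, Mthfd2l 262 and 174 in LF and 195 and 144 in MF, and Aldh1l2 62.2 and 56.2 in LF and 61.4 and 64.8 in MF. Mtfmt, which formylates the initiator tRNA, had 249 and 180 in LF and 152 and 174 in MF. Of the glycine cleavage system, Gldc had 765 and 919 in LF and 803 and 766 in MF, Gcsh 1261 and 1186 in LF and 1405 and 1276 in MF, and Amt 342 and 301 in LF and 152 and 264 in MF.
Of the transporters, Slc19a1, the reduced folate carrier, had 51.0 and 69.7 in LF and 78.5 and 71.2 in MF, Slc46a1 of proton-coupled uptake 47.3 and 128 in LF and 135 and 116 in MF, and Slc25a32 of the mitochondrial membrane 76.6 and 133 in LF and 109 and 68.0 in MF. Fpgs, which adds the glutamate tail that keeps folate in the cell, had 150 and 118 in LF and 208 and 165 in MF.
Ggh, which removes that tail, was the 1 gene of the list with an unadjusted p under 0.05, with 532 and 518 in LF and 148 and 148 in MF, 1.83 higher in LF (SE 0.21, adjusted p = 0.328, limma). It had 24 and 110 listed cytosines in LF and 67 and 66 in MF, fewer than 10 of them shared, and its mean coverage differed by 0.65. Of the 20 genes 3 lay higher in both LF libraries, Ggh, Amt and Mtfmt, and 3 lower, Fpgs, Slc19a1 and Gcsh, where 19.2% and 18.7% of all genes did. Of the 6 genes with shared cytosines none had an unadjusted p under 0.05, and their median difference was 0.04.

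**Figure D5:**
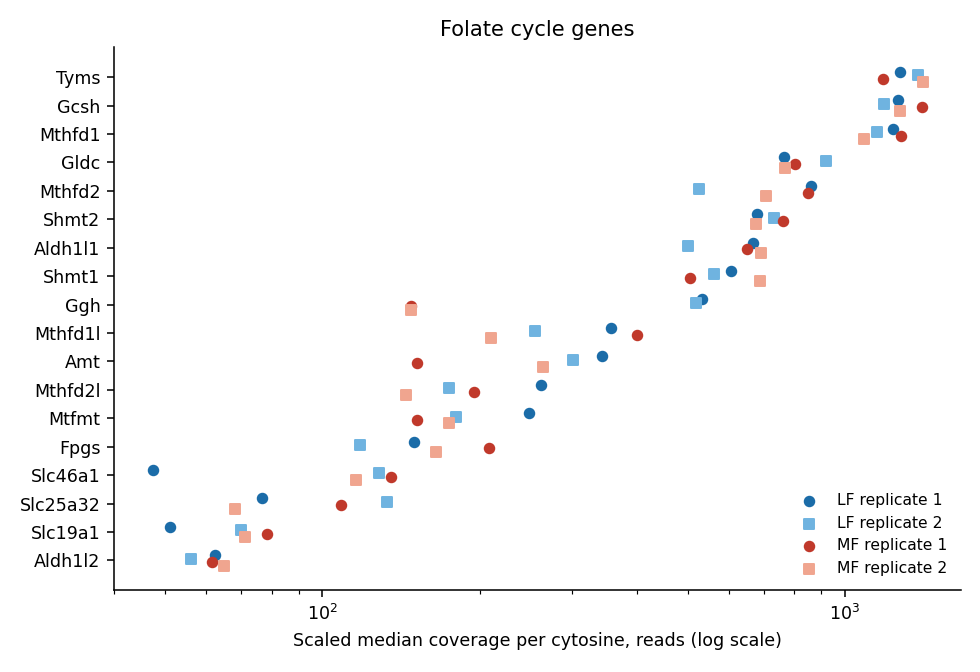
Scaled median coverage per cytosine (x axis, reads, log scale) of 18 measured folate cycle genes, with 1 point per library. The LF and MF points are interleaved in most genes, and in Ggh both LF points lie to the right of both MF points.

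The methionine cycle and polyamine genes had the lowest median difference over shared cytosines among the nuclear lists, -0.12 over 8 genes beside 0.00 over all, and 4 of the 8 were lower with an unadjusted p under 0.05, where 10.5% of all genes were. By the rule 0 of 16 were higher and 1 lower at that threshold, with a median of -0.13. None passed the adjusted threshold. Ahcy, which clears the S-adenosylhomocysteine left by methyl transfer, had 619 and 548 in LF and 801 and 847 in MF, a difference of -0.50 (adjusted p = 0.114, limma). Srm, spermidine synthase, had 1133 and 1408 in LF and 1705 and 1782 in MF, a difference of -0.47, and Amd1, which supplies it, 1298 and 1424 in LF and 1824 and 1577 in MF, a difference of -0.32.
Mat2a, which makes S-adenosylmethionine, had 1925 and 1763 in LF and 2041 and 2061 in MF, a difference of -0.15. By the rule the same 4 genes differed by -0.06, -0.40, -0.56 and 0.08, so the sign of Mat2a turned. Of the m5C enzymes and readers, Nsun2, the main writer of m5C in mRNA, had 2063 and 1922 in LF and 2076 and 1974 in MF over shared cytosines, and the readers Alyref and Ybx1 differed by -0.17 and 0.03. Nsun3, Nsun6, Nsun7 and Trdmt1 had no value.

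Over shared cytosines, more respiratory chain and ribosomal protein mRNAs lay higher than lower in LF, by small differences. Of 61 nuclear genes of the respiratory chain 12 were higher and 4 lower with an unadjusted p under 0.05, where 6.21% of all genes were higher and 10.5% lower, and their median difference was 0.10. By the rule 2 of 72 were higher and 2 lower at that threshold, with a median of 0.06. Uqcr11 of complex III had 2196 and 2441 in LF and 1525 and 1894 in MF, a difference of 0.45, and Cox6a1 of complex IV 3254 and 3639 in LF and 2799 and 2863 in MF, a difference of 0.28 where the rule gave -1.17. Sdhd of complex II went the other way, with 1287 and 1323 in LF and 1500 and 1510 in MF.
Of 60 cytosolic ribosomal proteins 15 were higher and 3 lower at the same threshold, with a median difference of 0.08, and by the rule 6 of 74 were higher and 3 lower, with a median of 0.13. Rps28 had 4780 and 4935 in LF and 2115 and 3537 in MF, a difference of 0.83 (SE 0.20), and Rpl41 3411 and 3121 in LF and 2572 and 2732 in MF, a difference of 0.30. MF replicate 1 was the lowest library in both lists, with a median of -0.08 and -0.06 from the mean of the 4 libraries on the log2 scale. No member of either list passed the adjusted threshold.

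The mitochondrially encoded mRNAs had the lowest median of all lists over shared cytosines, -0.20 over 6 genes, beside their higher unconverted levels in LF. From the mean of the libraries their median was -0.13 and -0.03 in LF and 0.22 and 0.006 in MF, so MF replicate 1 lay furthest off. Of the 6 genes 1 was higher and 3 lower with an unadjusted p under 0.05, where 6.21% of all genes were higher and 10.5% lower. By the rule 1 of 7 was higher and 1 lower, with a median of -0.32. mt-Cytb differed by -0.44, mt-Nd2 by -0.34 and mt-Co1 by -0.27, with an unadjusted p under 0.05 each, where the rule gave -0.40, -0.32 and 0.02. mt-Nd6, from the other strand, had 8331 and 8755 in LF and 6783 and 7927 in MF, a difference of 0.22. mt-Nd1 differed by -0.12 over shared cytosines and by 1.89 by the rule, with 930 and 1263 in LF and 385 and 224 in MF.

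Mitosis genes had a median difference of -0.08 over 28 genes with shared cytosines, with 0 higher and 6 lower at an unadjusted p under 0.05, where 6.21% of all genes were higher and 10.5% lower. By the rule 2 of 30 were higher and 1 lower at that threshold. Cdk1, the kinase that drives entry into mitosis, had 2050 and 2753 in LF and 3194 and 3177 in MF, a difference of -0.42 where the rule gave 0.09, and Racgap1, a regulator of cytokinesis, 1510 and 1576 in LF and 2068 and 1890 in MF, a difference of -0.36. The proliferation marker Mki67 had 2511 and 2264 in LF and 2960 and 2726 in MF, a difference of -0.25. Each lay lower in both LF libraries and none passed the adjusted threshold.
DNA replication genes, in contrast, were 1 higher and 1 lower of 24, with a median difference of -0.01. The targets of p53 and of ATF4, which report on DNA damage and on amino acid shortage, had medians of 0.12 over 12 genes and 0.08 over 11 with shared cytosines, and by the rule -0.03 over 19 and -0.18 over 18, so the sign turned in both. No p53 target and 1 higher and 1 lower ATF4 target had an unadjusted p under 0.05 over shared cytosines. The other lists, nucleotide synthesis, cholesterol synthesis, interferon response, glycolysis and hypoxia, immediate early genes, NRF2 and zinc response, ER chaperones and the Notch pathway, had medians from -0.07 to 0.16 over 3 to 18 genes, and 0 members passed in any of the 18 lists by either measure. At an unadjusted p under 0.05 over shared cytosines, 0 of 9 glycolysis and hypoxia genes were higher and 3 lower. For ER chaperones it was 0 higher and 3 lower of 13. By the rule these counts were 0 and 0 of 21, and 0 and 1 of 17.

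S100a16 was the 1 gene of 7543 (0.0133%) that passed a test of whether the LF minus MF difference in total mRNA differed from that in polysome mRNA, in limma over the 8 libraries with the rule's measure (386 genes had an unadjusted p under 0.05). On the scale of these 8 libraries its coverage was 6584 and 5004 in LF and 478 and 652 in MF, and in polysome mRNA 770 and 489 at low folate and 3639 and 2497 at mid folate. The order of the groups was thus opposite in the fractions, by 3.36 and -2.30 on the log2 scale (adjusted p of the difference 0.0427, limma). No gene passed when any 1 of the 8 libraries was left out, or over cytosines listed in all 8, where 1354 genes were measured, and in total mRNA the gap of S100a16 was 0.07 over shared cytosines, as given above.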

How the data were processed

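RNA BS-seq of poly(A)-selected total RNA was analysed in 2 LF and 2 MF libraries, with polysome libraries of the same folate levels beside them. The authors used fastp for trimming and meRanGh for alignment to mm10, took calls from meRanCall at a coverage of at least 10 and named genes from Ensembl GRCm38. The deposited values are whole-number counts of reads per cytosine, of reads with C and of reads with another base, 1 library per table, in which only cytosines with at least 1 unconverted read were listed. The deposited fraction of unconverted reads, computed by the authors, was used to check the level recomputed here, C reads over reads with C or T. The filter of the study on reads with more than 3 unconverted cytosines is not yet applied in these values. Its filters on signal and on regions predicted to resist conversion were not applied either.

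Cytosines marked as variants were left out. Some genes of the lists are counted but not reported here. For levels, the reads of both replicates were summed and tested with Fisher's exact test (two-sided), adjusted by Benjamini-Hochberg over all 339674 cytosines, threshold 0.05. Log2 gene coverage, centred on the median ratio over genes, was tested with limma 3.58.1 (trend) over all genes. Between 2 and 2 libraries, the smallest p of the exact permutation test is 0.33. edgeR 4.0.16, DESeq2 1.42.0, beta-binomial and blocked tests, other scalings and filters and leaving out each library were alternatives, run in Python 3.11.15 and R 4.3.3 with seed 20221123. On simulated data with known changes, the coverage rule recovered 14% of genes changed by 2 on the log2 scale, with 2 false calls over 10198 genes, and the shared cytosines recovered 100% of theirs, with 8 false calls over 3718 genes.

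Members and lists were chosen with earlier results of these data known. Named genes were the 12 per direction with the lowest limma p among single genes whose groups did not overlap, since none passed, with mean coverage of at least 50. The same rule over shared cytosines was added after the data were seen. Named cytosines were to be up to 8 per direction that passed and were methylated, 1 per cluster, which left 1 in Igfbp3, and genes the study names. Intervals and counts of reads cover counting error only.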

Additional observations from a re-analysis of the deposited data

Results flagged for a closer look

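S100a16 was singled out because its LF minus MF difference in coverage, on the log2 scale, was not the same in total and in polysome mRNA. It was 3.36 in total mRNA and -2.30 in polysome mRNA, 5.66 apart (SE 0.47, adjusted p = 0.0427, limma over 8 libraries). No gene passed with the replicate number as a block or without any 1 of the 8 libraries. The libraries listed different cytosines of this gene, 117 and 144 in LF and 212 and 180 in MF, and its difference over shared cytosines in total mRNA was 0.07. The part of the listed cytosines in the polysome value was not tested.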

How the results depend on the processing

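The count of 30 cytosines that passed became 27 to 33 at other coverage minimums, without chromosome MT, without clustered cytosines and with the beta-binomial test. It was 12 with the overdispersion of methylated cytosines (added after seeing the data), all in Igfbp3, and 0 with limma on log odds. It was also 12 when adjusted over the 1842 methylated cytosines alone, 3 higher and 9 lower. Of these, 3 were those of Igfbp3, which qualified as methylated through MF alone, and the other 9 did not pass over all cytosines. These 9 were the isolated cytosines of Col4a6, Wdr48 and Rnf157, 1 each in Ank, Skida1 and mt-Nd5, and 3 outside annotated genes. Leaving out each library gave 29 to 53, with 53 without LF replicate 2, and the split turned from 9 higher and 21 lower to 18 and 11 without LF replicate 1 and to 37 and 16 without LF replicate 2. The shared overdispersion of the beta-binomial test was at the lowest value tried, so it was close to binomial and is no separate check. That of methylated cytosines was 1 value for all of them and does not measure the spread between replicates at Igfbp3.

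The median level of methylated cytosines kept its sign (0.15 percentage points without clustered cytosines) except without chromosome MT (-1.62 percentage points) and in nuclear genes alone (-2.61, added after seeing the data), and lay between 1.30 and 7.97 when each library was left out. The difference in unconverted share lay between 0.00252 and 0.00767 percentage points.

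Gene coverage by the rule gave 0 genes except over shared cytosines (1) and with DESeq2 (132). Over shared cytosines, all alternatives being added after seeing the data, it gave 0 with quantile normalization, 78 when scaled by summed coverage, 3 with at least 30 cytosines, 0 without trend (612 at an unadjusted p under 0.05) and 87 with DESeq2. Leaving out each library gave 0 to 107, with 2 without LF replicate 1, 10 without LF replicate 2, 0 without MF replicate 1 and 107 without MF replicate 2. The unconverted share of genes gave 0 to 26, with 26 without MF replicate 1. The total against polysome comparison gave 0 without each library and 0 over cytosines listed in all 8 (added after seeing the data; 39 at an unadjusted p under 0.05). The sign turned over shared cytosines in Matr3 (-0.11), Pbdc1 (0.072), Chmp3 (0.038) and Vps26a (0.11), and with levels under 2% in Tmem177 (-0.13), Med21 (-0.48) and Eef1e1 (0.46). The cause was not tested.

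LF and MF share replicate numbers, but the labels do not say that a number marks a shared origin, and the deviations of same-numbered libraries correlated at 0.0109 (rule) and 0.0293 (shared cytosines), so they were not taken as paired. With the number as a replicate block, 25 cytosines passed a Cochran-Mantel-Haenszel test, 0 genes passed by the rule, over shared cytosines, by unconverted share or between total and polysome mRNA in limma, and the median level differed by 4.63 and the unconverted share by 0.0051 percentage points (exact sign-flip test, p = 0.5, the smallest it allows).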
